A study of Xenopus tropicalis with 24 samples.

Results

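Monomethylation of histone H3 at lysine 4 (H3K4me1) was mapped by chromatin immunoprecipitation and sequencing in whole Xenopus tropicalis embryos at stage 9, a late blastula stage, with and without Nodal signalling. The peaks described are the members of 2 deposited lists, 17162 from Nodal-inhibited embryos and 25975 from untreated embryos, which makes 43137 of the 169312 peaks in the 17 peak lists of the series. The inhibited embryos were wild type and had been exposed since the 4-cell stage to SB431542, which inhibits the type I receptors for Nodal and Activin. The untreated embryos were wild type, of the same stage and without the inhibitor, and both arms used pools of 250 embryos. Each arm is 1 library, so differences between the arms have no replicate check and no p-value. Peaks of the arms that overlapped by at least 1 bp were counted as shared, and peaks of either list with no such overlap as inhibited-only or untreated-only.

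H3K4me1 is laid down by the MLL3 and MLL4 methyltransferases and marks enhancers, both active ones and ones that are primed before they act, and it flanks active promoters, where trimethylation of the same residue (H3K4me3) takes over at the start site. Acetylation of lysine 27 (H3K27ac) is the mark that separates active from primed enhancers. Nodal ligands bind Activin receptors with an EGF-CFC co-receptor, the receptors phosphorylate Smad2 and Smad3, and these enter the nucleus with Smad4 and bind DNA beside partners such as Foxh1, Eomes and Mixer. In the frog blastula this pathway induces endoderm and mesoderm from the vegetal side, and it switches on its own ligands and its feedback antagonists.

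The arms differed in more than the treatment. Per the labels and the submitters' processing notes, the inhibited library carried no multiplex adapters and was aligned with Bowtie, and the untreated library carried multiplex adapters and was aligned with BWA, so treatment, adapters and aligner cannot be told apart. The label of the untreated library also mentions a repeat in a further pool, and whether its list joins several runs is not stated. The inhibited list had peaks on 1559 scaffolds and the untreated list on 2468. Since whole embryos were used, loss of the mark in some cells and less of it in each cell cannot be told apart. Stage 9 RNA gave no clear check of the inhibition. Several targets of the pathway had few tags, with 0 in inhibited and 0 in untreated embryos for cer1, 3 and 0 for eomes, and 11 and 17 for gsc. Expressed mesendoderm and organizer genes went both ways, with 254 and 664 tags for vegt, 424 and 239 for not, and 157 and 17 for admp.

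The antibody labels of the inhibited embryos also need care. The inhibited list labelled H3K4me1 shared 42.0% of the joint length with untreated stage 9 H3K4me1, and 32.0% with untreated stage 9 H3K27ac. The inhibited list labelled H3K27ac shared 43.3% of the joint length with untreated H3K4me1 and 26.8% with untreated H3K27ac, so it too lay nearer to untreated H3K4me1 than to untreated H3K27ac. Between the inhibited lists the order depended on the measure. The one labelled H3K4me1 covered 54.4% of the untreated H3K4me1 length and the one labelled H3K27ac 50.6%, while of untreated H3K27ac they covered 58.9% and 45.4%. Of 5519 untreated H3K4me1 peaks present at stages 9 and 10.5 and free of H3K27ac at both, the list labelled H3K4me1 met 39.0% (95% interval 37.7 to 40.3) and the list labelled H3K27ac met 49.9% (48.6 to 51.2). Among the 2000 highest-scoring peaks, 37.7% in the inhibited list labelled H3K4me1 and 11.95% in the one labelled H3K27ac lay within 1 kb of a start site, against 31.5% for untreated stage 9 H3K4me1 and 23.4% for untreated stage 9 H3K27ac. At stage 10.5 the untreated shares were 7.4% for H3K4me1 and 36.35% for H3K27ac. Stage 9 H3K4me3 overlapped 80.45% of these peaks in the inhibited list labelled H3K4me1 and 28.65% in the one labelled H3K27ac. For untreated H3K4me1 and H3K27ac it overlapped 58.4% and 56.95% at stage 9, and 31.25% and 78.3% at stage 10.5. Whether the 2 inhibited libraries carry each other's label was not tested. The list labelled untreated stage 9 H3K27ac has peak names with the prefix of an earlier stage. Its stage is therefore uncertain here and wherever it is used below, and this was not tested. The results below use the labels as given, with the value for the other inhibited list beside the main ones. Intervals are exact binomial (Clopper-Pearson) and cover counting error only.

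Of the inhibited peaks, 14010 (81.6%, 81.0 to 82.2) were also called in untreated embryos and 3152 (18.4%) were not. Of the untreated peaks, 13927 (53.6%, 53.0 to 54.2) were called again under inhibition and 12048 (46.4%) were not. Most of the inhibited list therefore lay inside the untreated one, which held many peaks of its own. In length, 32.1 Mb was common to both arms, which was 64.9% of the 49.5 Mb in inhibited embryos and 54.4% of the 59.0 Mb in untreated embryos. With the inhibited list labelled H3K27ac in its place, 83.3% of its peaks were also in the untreated list and 49.998% of untreated peaks were called again. The untreated list was the longer one. When it was reduced by score to the length of the inhibited list, the inhibited peaks also called in untreated embryos came to 71.6% and the untreated peaks called again to 69.4%.

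Shared peaks that matched 1 to 1 had similar median widths in the arms. How near they lie is set in part by the overlap rule, and peaks that met several of the other arm are left out. In 12309 cases 1 inhibited peak matched 1 untreated peak, with a median width of 2117 bp in inhibited and 2103 bp in untreated embryos and centres a median of 317 bp apart. The inhibited peak was 0.928 times as wide at the median, with quartiles of 0.652 and 1.35. In 13.5% of the pairs it was at least 2-fold narrower and in 10.3% at least 2-fold wider. The unshared peaks of the arms lay differently: 38.9% of inhibited-only peaks were within 5 kb of an untreated peak, while 15.5% of untreated-only peaks were within 5 kb of an inhibited peak. For 28.0% of inhibited-only peaks the nearest peak of the other arm was over 20 kb away or there was none on the scaffold, and for untreated-only peaks this share was 59.4%.

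Peaks in one arm alone were the weaker and narrower ones of their list. Inhibited-only peaks had a median width of 1190 bp, against 2238 bp for inhibited peaks that were shared, and untreated-only peaks 1139 bp, against 2195 bp for shared untreated peaks. The score is the authors' own and is read only within a list. From the lowest to the highest decile by score, the share met by the other arm went up in the inhibited list from 51.8% to 99.5% and in the untreated list from 18.9% to 92.3%. By width, it went up from 49.2% to 97.2% in the inhibited list and from 9.7% to 93.3% in the untreated list. GC content separated the classes less. Among inhibited peaks every GC decile was met by the untreated list at 77.8% to 84.1%, whereas among untreated peaks the lowest GC decile was called again at 30.3% and the eighth at 65.8%. Untreated-only peaks had a median GC of 40.1%, against 42.1% for shared untreated peaks. That difference, untreated-only minus shared, was -2.002 percentage points, and -0.21 when averaged over quintiles of the score.

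**Figure D1:**
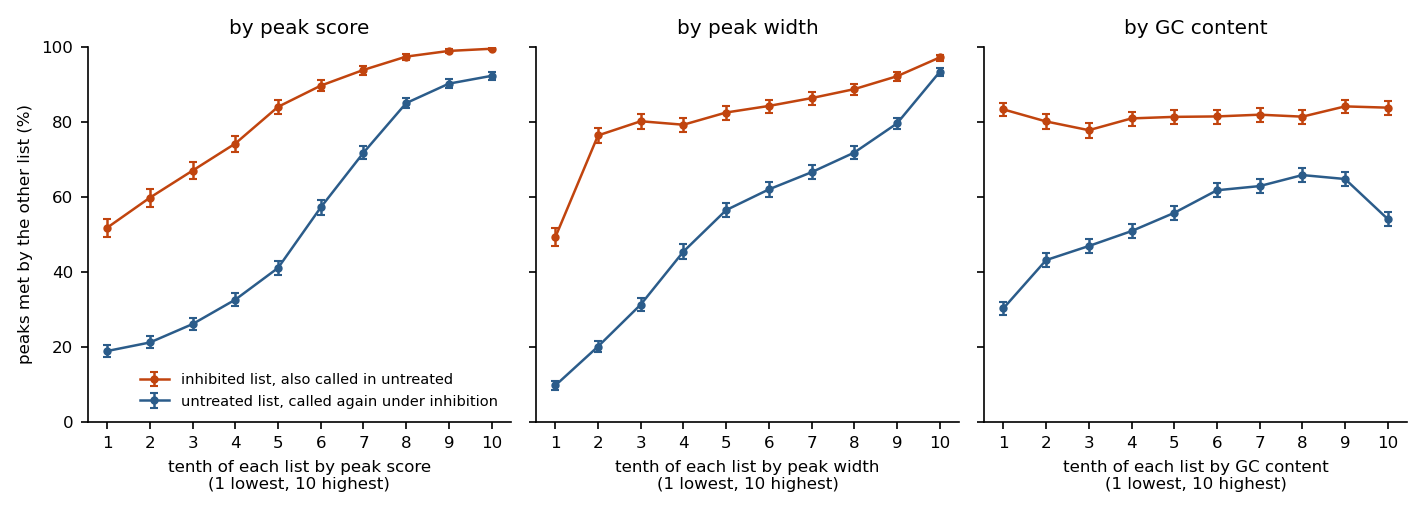
Share of H3K4me1 peaks met by the other arm (y axis, %) in each decile of its own list (x axis) by score, width and GC content, for inhibited and untreated stage 9 embryos. Bars are exact 95% intervals. The share climbs steeply with score and width in both lists, to 99.5% and 92.3% in the top score deciles of inhibited and untreated embryos, and is nearly flat with GC in the inhibited list.

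Promoters kept the mark more often than distal sites. Of inhibited peaks within 1 kb of a start site 98.3% were also in the untreated list, and of untreated peaks there 82.4% were called again. Beyond 1 kb the shares were 77.2% of inhibited and 49.5% of untreated peaks. They decreased further with distance, to 71.1% and 41.3% past 200 kb. By annotation, untreated peaks at promoters were called again in 79.9% of cases, in exons in 74.4%, in introns in 57.7%, in intergenic sequence in 50.1% and at repeats in 38.5%. Among inhibited-only peaks 63 (1.999%) lay within 1 kb of a start site, and among untreated-only peaks 817 (6.78%). The 32.9-point gap between promoter and distal untreated peaks was 7.29 points on average over score quintiles, and 6.89 points with the inhibited list labelled H3K27ac.

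Seen from the start sites of all genes, the arms had the same shape. Of the 8164 gene names in any list, 7922 (97.0%) could be given a start site from the deposited distances. In the first kb downstream, inhibited H3K4me1 peaks covered 46.6% of the genes on average and untreated peaks 56.8%. Between 10 and 50 kb upstream the coverage was 5.27% in inhibited and 5.92% in untreated embryos. At the 12 endoderm transcription factors the arms lay farther apart. Over the first 5 kb downstream, inhibited peaks covered 48.0% of their sequence and untreated peaks 87.0%, and over the 5 kb upstream 32.8% and 60.5%. From 5 to 10 kb downstream it was 24.5% and 32.5%, and in the bin from 9 to 10 kb the inhibited coverage was the higher, with 24.2% and 20.6%.

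**Figure D2:**
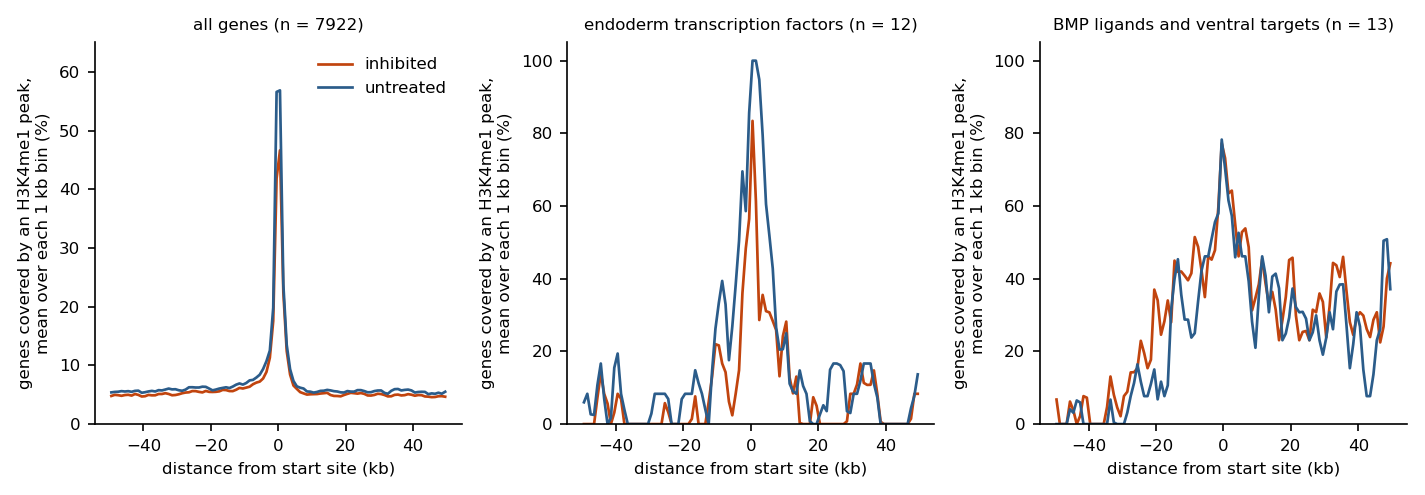
Mean share of genes covered by an H3K4me1 peak (y axis, %) in 1 kb bins by distance from the start site (x axis, kb) for inhibited and untreated stage 9 embryos. The panels show all genes, the endoderm transcription factors, and the BMP ligands and ventral targets. In all genes the lines run together except at the start site, where inhibited embryos reach 46.6% and untreated embryos 56.8%, and in the endoderm transcription factors the inhibited line lies below the untreated one near the start site.

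Untreated peaks that already carried another active mark were called again more often. Untreated H3K4me1 peaks that overlapped untreated stage 9 H3K27ac were called again in 78.0% of cases, and those that did not in 39.8%, a gap of 38.3 points that was 21.6 points on average over score quintiles. Peaks already called at stage 8 were called again in 87.8% of cases and peaks not called at stage 8 in 44.7%, a gap of 43.1 points and of 11.3 over score quintiles. With the inhibited list labelled H3K27ac, the gaps were 22.6 points for acetylation and 20.4 points for stage 8. Peak names in the untreated stage 9 H3K27ac list carry a stage 8 prefix, so the stage of this acetylation is uncertain. Inhibited-only peaks were mostly free of acetylation: 71.1% overlapped no H3K27ac peak of either arm, 19.5% only one of inhibited embryos, 6.57% only one of untreated embryos and 2.79% one in each. Of untreated-only peaks, 62.8% overlapped neither, 20.1% H3K27ac of inhibited embryos alone, 12.9% that of untreated embryos alone and 4.27% both. Among shared peaks 14.8% of inhibited and 15.0% of untreated ones overlapped neither. Unshared peaks had the lower scores, and these shares were not matched for score.

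The classes also differed in when their sites carried H3K4me1 in untreated embryos. Of inhibited-only peaks, 8 (0.254%) met a stage 8 peak and 1060 (33.6%) a stage 10.5 peak, and 2085 (66.1%) met neither. Of untreated-only peaks, 652 (5.41%) met a stage 8 peak and 7685 (63.8%) a stage 10.5 peak, and 4319 (35.8%) met neither. Over all untreated peaks the share at stage 10.5 was 79.3%, and over shared untreated peaks 92.8%, so untreated-only sites were marked at the gastrula stage less often than shared ones. Shared inhibited peaks met a stage 10.5 peak in 92.6% of cases. The untreated stages share an aligner and adapters, which the inhibited library does not. Of the 35700 peaks at stage 10.5, inhibited stage 9 embryos had a peak at 38.0% and untreated stage 9 embryos at 55.7%.

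Most Smad2/3 sites of stage 10.5 lay under H3K4me1 in both arms. Of 1024 sites, 567 (55.4%) lay under H3K4me1 peaks of both arms, 30 (2.93%) under inhibited peaks alone, 190 (18.6%) under untreated peaks alone and 237 under neither. Untreated peaks that held such a site were called again in 81.3% of cases and the others in 52.9%. The gap of 28.4 points was 16.5 points on average over score quintiles, and 33.9 points with the inhibited list labelled H3K27ac. Sites of stage 9 went the other way, with 38.2% (25.4 to 52.3) of the 55 untreated peaks that held one called again and 53.6% of the rest. By score quintile that difference ran from -45.1 to 12.4 points, so its direction was not steady. The stage 9 sites also differed from those of stage 10.5 in median GC (55.8% and 40.2%) and in the share without an assigned start site (28.6% and 5.86%).

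Within 50 kb of a start site, 18 Smad2/3 sites at 17 genes were marked under inhibition alone and 123 sites at 98 genes in untreated embryos alone. The first kind included both sites near dact1, a modulator of Wnt signalling, and 1 of those near admp, a BMP-family ligand of the organizer. The 123 sites were 19.7% of all 624 sites within 50 kb of a gene, and 383 (61.4%) were marked in both arms. Near endoderm transcription factors 12 of 17 sites were marked in untreated embryos alone and 4 in both arms, and near mesoderm genes 18 of 35 and 11. These lists share vegt and eomes. Of the 12 endoderm sites, the inhibited list labelled H3K27ac met those near gata4 and gata5 and some of those near vegt, eomes and hhex. It did not meet the ones near gata6 and sox17b.1. The endoderm figure is thus smaller with that list. Near organizer genes it was 5 of 36 sites, with 26 marked in both arms, near pluripotency factors 0 of 16 and near BMP genes 1 of 15. Genes of no list held 84 of the 123 sites, 18.2% of their own 461. All 4 sites near vegt, the maternal and zygotic T-box activator of endoderm and mesoderm, were marked in untreated embryos alone, as were 3 of the 4 near t (Brachyury, the T-box factor of early mesoderm), both near lefty, a feedback antagonist of Nodal, and both near hhex, a homeobox factor of anterior endoderm. One of the 4 vegt sites, scaffold_12:4629565-4629960 in the xenTro2 build, was at -0.468 kb from the start and carried H3K27ac in untreated embryos alone. The lefty site at scaffold_719:392731-393255, at -3.547 kb, showed the same combination, as did the vegt site at 14.596 kb. The vegt sites at 1.551 and 3.92 kb and the lefty site at 6.447 kb carried H3K27ac in both arms. The hhex sites carried it in inhibited embryos alone or in neither arm. Of all 190 sites under untreated H3K4me1 alone, 61 (32.1%) carried H3K27ac in untreated embryos alone, 51 (26.8%) in both arms and 25 (13.2%) in inhibited embryos alone. One site near each of gata4, gata5, gata6, cer1, frzb and nodal1 was also under H3K4me1 of untreated embryos alone. The gata5 and cer1 sites carried H3K27ac in inhibited embryos alone.

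Summed over peaks within 50 kb of the start of the nearest gene, 7286 genes had H3K4me1 in at least one arm, 6088 of them in inhibited and 7091 in untreated embryos. Of the genes marked in untreated embryos, 1198 (16.9%) had no peak under inhibition, and of those marked under inhibition 195 (3.2%) had none in untreated embryos. Of the 1198 genes, 853 had had a single untreated peak. The share with none under inhibition was 27.4% among genes with 1 untreated peak and 2.59% among genes with 4 or more. With the inhibited list labelled H3K27ac the count was 1878. A length at least 2-fold shorter or none under inhibition was seen at 34.4% of genes, and at least 2-fold longer or new at 6.96%. The median log2 ratio of inhibited over untreated length was -0.30 over the 5893 genes with peaks in both arms. Of these, 3812 were shorter under inhibition by any amount and 2081 longer. The lists below are read against these figures.

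Of the 5 Nodal and co-ligand genes with peaks, 1 was past 2-fold in each direction. Summed peak length near nodal was 7.55 kb in inhibited and 5.50 kb in untreated embryos, and near nodal1 5.59 kb and 10.9 kb. At nodal3.2, one of a cluster of near-identical copies whose peaks are uncertain, it was 0 kb and 1.68 kb. The co-ligand gene gdf1 had 8.21 kb under inhibition and none in untreated embryos by nearest gene, and gdf3 had 12.6 kb and 9.77 kb. Ligand genes thus differed in direction, and the sign of their median, 0.36 over 3 genes, turned under 3 of the alternatives tried.

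The feedback antagonists and receptors were shorter at 4 of 8 genes past 2-fold and longer at none. Near lefty, 2 peaks of 2.42 kb in all stood in inhibited embryos, against 4 peaks of 8.01 kb in untreated embryos. Near cer1, a secreted Nodal, BMP and Wnt antagonist of anterior endoderm, there was no peak under inhibition, against 2 peaks of 5.45 kb in untreated embryos. The larger of these, scaffold_443:537-4938, spanned the promoter and a Smad2/3 site, and the inhibited list labelled H3K27ac did have a peak there. Acvr1b, a type I receptor that SB431542 blocks, had 1 peak of 2.51 kb in inhibited and 5 peaks of 9.89 kb in untreated embryos. Acvr2b, a type II receptor, had 1.23 kb and 2.99 kb, while the co-receptor gene tdgf1 had 26.8 kb and 17.04 kb. Of the 7 Smad and partner genes with peaks, 1 was at least 2-fold shorter and 2 were longer or new, and the sign of their median of -0.17 turned with the untreated list reduced (0.14). At tcf7l1, a repressor of Wnt targets, 7 peaks of 44.8 kb stood in inhibited embryos and 3 peaks of 21.2 kb in untreated embryos. Smad2 had 3.42 kb and 4.06 kb and smad3 3.58 kb and 3.84 kb.

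At the endoderm transcription factors H3K4me1 was shorter under inhibition at 11 of 12 genes and at least 2-fold shorter at 6. Over all genes, 3812 of the 5893 with peaks in both arms were shorter, and 34.4% were at least 2-fold shorter or without a peak. The summed length at the endoderm factors was 78.7 kb in inhibited and 154.6 kb in untreated embryos, in 26 and 34 peaks. Their median log2 ratio was -1.02. At gata5, a GATA factor of early endoderm, 1 peak of 0.695 kb was left under inhibition, against 3 peaks of 9.87 kb in untreated embryos. The distal peaks at scaffold_531:841367-843957, which holds a Smad2/3 site at -4.025 kb from the start, and scaffold_531:844999-848299 were not called again. Their scores, 67 and 83, stood at percentiles 87.6 and 94.5 of the untreated list. Hhex had 6.85 kb in 3 inhibited peaks and 26.5 kb in 7 untreated peaks. Gata4 had 5.74 kb in inhibited and 15.6 kb in untreated embryos, and its untreated peak of 12.5 kb across the start site was met by 3 separate inhibited peaks. Foxa1, a pioneer factor of endoderm, had 6.26 kb in 1 inhibited peak and 14.3 kb in 5 untreated peaks.

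The other endoderm genes were shorter by less or held their length. Gata6 had 8.53 kb in inhibited and 16.3 kb in untreated embryos and vegt 5.96 kb and 13.0 kb. At sox17b.2, one of the clustered sox17 endoderm genes, 6.93 kb stood in inhibited embryos, against a single untreated peak of 14.9 kb that reached the start site of its neighbour sox17b.1. Foxa2 had 12.3 kb in inhibited and 14.6 kb in untreated embryos, and eomes, the T-box partner of Smads, 16.3 kb and 15.2 kb. By windows of 50 kb to each side of the start site, which do not depend on the nearest gene, the median log2 ratio was -0.90 with 11 of 12 genes shorter. By this measure the all-gene median was -0.32, with 4617 of 6861 genes shorter. Past 2-fold shorter were 4 of 12 genes (33.3%), near the 28.4% of all genes. With the inhibited list labelled H3K27ac, by nearest gene, the endoderm median was -0.50, with 11 of 12 genes shorter and 2 past 2-fold. Over all genes with that list the median was -0.33, and 3584 of 5213 genes were shorter. At least 2-fold shorter or without a peak were 3101 of 7253 genes, a larger share than in the endoderm list. All 3 untreated gata5 peaks and 5 of the 7 untreated hhex peaks were met by that list.

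**Figure D3:**
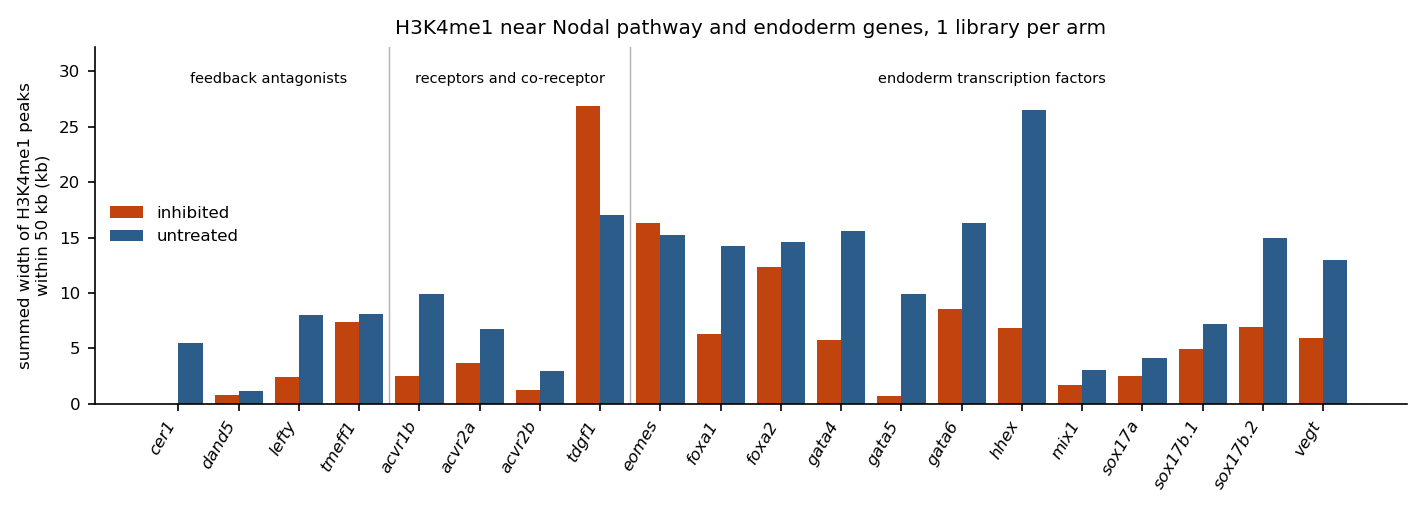
Summed width of H3K4me1 peaks within 50 kb (y axis, kb) at Nodal pathway and endoderm genes (x axis), inhibited beside untreated stage 9 embryos, with 1 library per arm and so no error bars. Inhibited bars are shorter at all endoderm genes shown but eomes (16.3 against 15.2 kb), and cer1 has none under inhibition against 5.45 kb in untreated embryos.

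Mesoderm and organizer genes were mixed. Of 22 mesoderm genes with peaks, 7 were at least 2-fold shorter or without a peak under inhibition and 1 was longer, with a median log2 ratio of -0.12. That median was 0.13 against the untreated list reduced to the inhibited length, and 0.10 within 20 kb. The losses included cdx2, a caudal factor of posterior tissue, with 0 kb in inhibited and 9.54 kb in 4 peaks in untreated embryos. Near cdx2 the inhibited list labelled H3K27ac had 6.63 kb. Another was myf5, a myogenic factor, with 0 kb in inhibited and 3.26 kb in untreated embryos. By contrast t had 16.4 kb in inhibited and 9.97 kb in untreated embryos, and wnt8a, the zygotic Wnt ligand of ventrolateral mesoderm, 21.0 kb and 14.01 kb. Of 17 organizer genes, 4 had no peak under inhibition and none was past 2-fold longer. These were sia1, a homeobox activator of the organizer, with 4.49 kb in 3 peaks in untreated embryos, frzb with 3.05 kb and dkk1 with 7.07 kb, both Wnt antagonists, and the head factor hesx1 with 1.182 kb. Core organizer genes kept their length, with 15.8 kb in inhibited and 15.4 kb in untreated embryos at gsc, and 28.4 kb and 21.2 kb at chrd, the BMP antagonist chordin. The organizer median log2 ratio was 0.03, and -0.33 with the inhibited list labelled H3K27ac. The summed length over the organizer list was 236.1 kb under inhibition and 249.0 kb in untreated embryos.

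The BMP and pluripotency lists lay on the longer side by label. Among 13 BMP ligand and ventral target genes, H3K4me1 was longer at 11, with 195.8 kb in inhibited and 166.8 kb in untreated embryos and a median log2 ratio of 0.36. Over all genes with peaks in both arms, 2081 of 5893 were longer. Bmp4 had 48.6 kb and 39.5 kb, and id3, a direct BMP target that inhibits bHLH factors, 33.3 kb and 19.5 kb. The exception past 2-fold was msx1, another BMP target, with 1 peak of 0.56 kb in inhibited and 20.7 kb in untreated embryos. The pluripotency and early zygotic factors were longer at 8 of 12 genes, with 336.8 kb in inhibited and 260.4 kb in untreated embryos and a median of 0.21. The Wnt and FGF genes were split, with 7 longer and 7 shorter and a median of 0.18, among them ctnnb1, which encodes beta-catenin, with 51.3 kb in inhibited and 23.2 kb in untreated embryos. In neural and ectodermal genes, 2 of 17 were past 2-fold in each direction, and the neural HMG-box gene sox11 stood out with 57.6 kb in 11 inhibited peaks and 22.9 kb in 7 untreated peaks. With the inhibited list labelled H3K27ac the BMP median was -0.038, the pluripotency median -0.20 and the Wnt and FGF median -0.36. With that list 12 of 14 Wnt and FGF genes were shorter, and 3584 of 5213 over all genes. The direction of all 3 lists thus depended on which inhibited list was used, and within 20 kb the Wnt and FGF median was -0.024.

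Lists kept for comparison also held many genes past 2-fold on the shorter side. Housekeeping genes were at least 2-fold shorter or without a peak at 6 of 15 and longer at 1, with a median log2 ratio of -0.57. Markers of later cell types were so at 8 of 16 and longer at 1, with a median of -0.26, which is near that of all genes. Maternal and germ plasm genes were so at 5 of 10 once vegt and gdf1, which other lists hold too, were left out, with a median of -0.38. Among genes with peaks in both arms, 8 of 12 housekeeping genes and 4 of 8 of these maternal genes were shorter by any amount, against 11 of 12 endoderm factors. Over all genes with peaks in both arms this was 3812 of 5893. Shortening was not particular to endoderm factors. In groups made by name after values were seen, 12 of 15 histone, 7 of 9 Hox and 40 of 50 znf genes were shorter. By nearest gene, the histone and Hox medians, -1.48 and -1.39, were more negative than the endoderm median of -1.02. By start-site windows they were -0.82 and -0.81, and the endoderm median was -0.90. With the inhibited list labelled H3K27ac the histone, Hox and endoderm medians were -1.12, -0.32 and -0.50. The order of these lists thus depended on the setting.

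**Figure D4:**
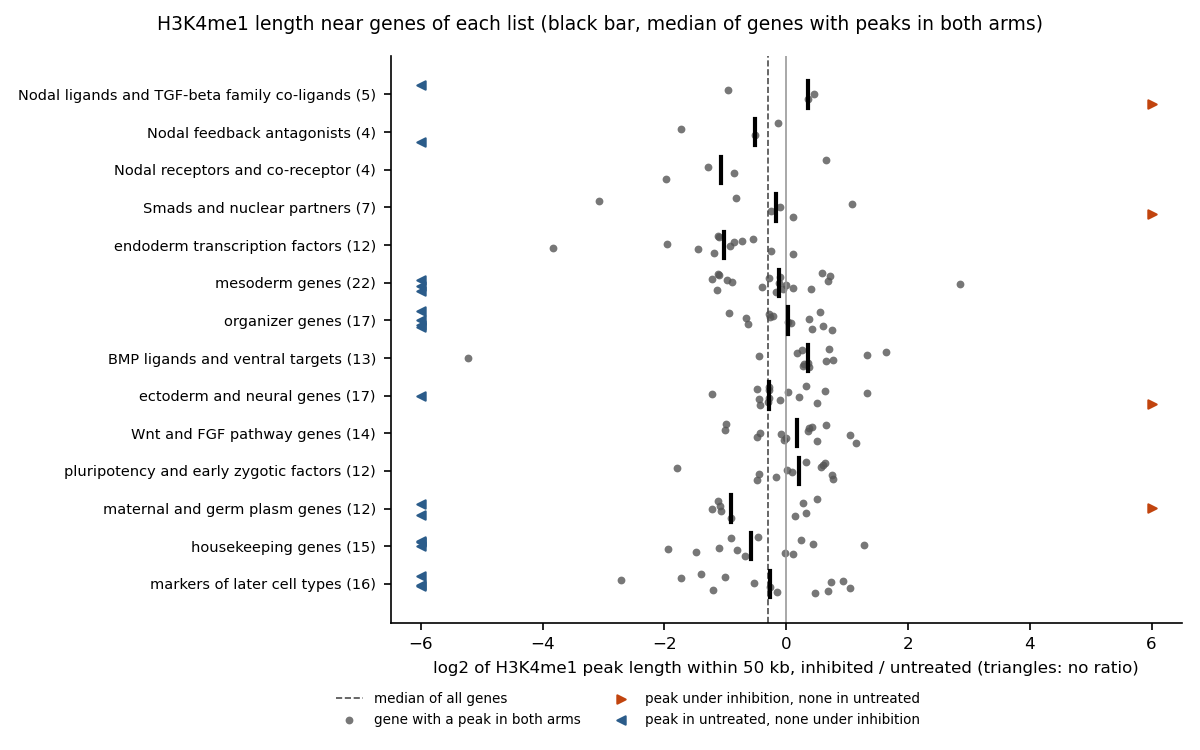
Log2 ratio of H3K4me1 length within 50 kb, inhibited over untreated (x axis), for each gene (point) of each list (y axis). Triangles at the edges are genes without a ratio because an arm had no peak, and black bars are medians over genes with peaks in both arms, which stand at -1.07 in the 4 receptor genes (-0.47 against the untreated list reduced to the inhibited length), -1.02 in the endoderm factors and 0.36 in the BMP list, with the dashed line at the all-gene median of -0.30.

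The broadest H3K4me1 domains of each arm were met by the other arm, often by several peaks. Every inhibited peak of 20 kb or more (61 of 61) was met by an untreated peak and every untreated peak of that width (50 of 50) by an inhibited one, against 64.9% of inhibited and 16.2% of untreated peaks under 1 kb. A wide peak has more length in which to meet another by 1 bp, so shares of length are given too. The other arm covered 66.8% of the length of inhibited peaks under 1 kb and 67.8% at 20 kb or more. For untreated peaks it covered 13.9% under 1 kb, 76.5% from 10 to 20 kb and 64.3% at 20 kb or more. Of the 61 inhibited peaks, 41 (67.2%) met at least 2 untreated peaks, and of the 50 untreated peaks, 39 (78%) met at least 2 inhibited peaks, so wide peaks were divided in both directions. Over all widths, 550 inhibited peaks met several untreated peaks and 554 untreated peaks several inhibited ones. The widest peak in inhibited embryos spanned 46.8 kb at csnk1g3, and the widest in untreated embryos 112.1 kb across the hoxa cluster at hoxa5. At hoxa5 the untreated domain was met by 14 inhibited peaks that covered 52.4% of it, the largest 14.9 kb long. At hoxc10 a domain of 64.7 kb was met by 8 inhibited peaks over 59.3%.

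Among the 30 widest untreated peaks coverage under inhibition differed with acetylation. These peaks were chosen for their width in untreated embryos. The 30 widest inhibited peaks, chosen the same way, were covered by untreated peaks at a median of 70.5% (37.7% to 100%), and 21 of them met several. The 20 with under 50% of their length under untreated H3K27ac were covered by inhibited H3K4me1 at a median of 55.5% (lowest 9.35%, highest 89.3%), and all 20 met several inhibited peaks, 88 in all. The 10 with more were covered at a median of 96.9% (71.2% to 100%), and 3 of them met several. The second kind includes peaks at sox2, covered to 98.6%, and at bmp4, covered to 95.1%. The inhibited list labelled H3K27ac covered the 20 sparsely acetylated domains at a median of 92.3%, where untreated H3K27ac covered 10.3%. Hox length was summed over peaks within 50 kb of the start of a nearest Hox gene or Hox-cluster microRNA. By this sum inhibited embryos had 188.1 kb of H3K4me1 in 57 peaks and untreated stage 9 embryos 387.7 kb in 17. An untreated peak of 25.2 kb at -50.27 kb from hoxd8 fell outside it. For H3K27ac the same sum was 373.3 kb by label in inhibited embryos and 30.2 kb in untreated stage 9 embryos. In untreated embryos over time, Hox H3K4me1 was 90.9 kb at stage 8, 387.7 kb at stage 9 and 411.2 kb at stage 10.5, and H3K27ac was 140.4 kb, 30.2 kb and 24.0 kb. The inhibited length labelled H3K27ac was thus nearer to untreated stage 9 H3K4me1 than to untreated H3K27ac of any stage. The untreated stage 9 H3K27ac values use the list whose peak names carry a stage 8 prefix, taken as labelled.

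**Figure D5:**
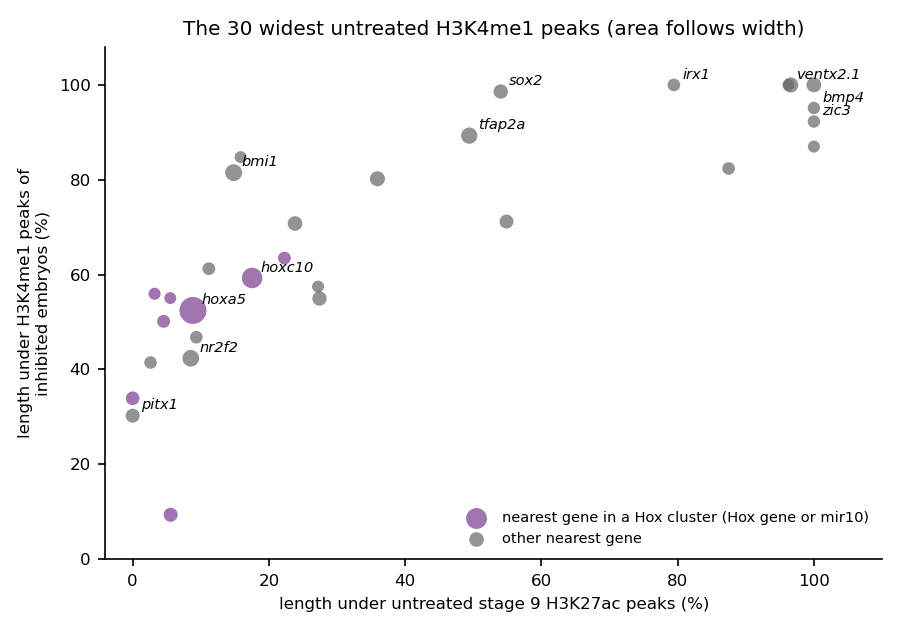
The 30 widest untreated H3K4me1 peaks by the share of their length under untreated stage 9 H3K27ac (x axis, %) and under H3K4me1 of inhibited embryos (y axis, %), with area following width and Hox clusters coloured. The 10 peaks with at least 50% acetylation sit at 71.2% or above, and the Hox clusters sit at 63.5% or below.

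The unshared peaks of highest score were led by genes outside the fixed lists. By score, inhibited-only peaks within 50 kb of a start site were led by gria4, a glutamate receptor subunit, at scaffold_119:1349406-1350686 with a score of 36, then pitrm1 at 34 and picalm.2 at 30. Untreated-only peaks were led by sord, which encodes sorbitol dehydrogenase, with a score of 228, then adcyap1r1 at 161 and adad1 at 135. Among the widest inhibited-only peaks was one of 7170 bp at fgfr4, an FGF receptor. Among the widest untreated-only peaks were 2 at hoxb9, of 11365 and 9164 bp. Single ones stood at tfap2b, a neural crest factor (10833 bp), bsx, a brain homeobox gene (10100 bp), and msx1 (9331 bp). The peaks named here at fgfr4, hoxb9, tfap2b, bsx and msx1 were each met by the inhibited list labelled H3K27ac. Not met by it were others among the widest untreated-only peaks, at usb1 (10085 bp) and sytl1 (8672 bp), and the high-scoring ones at sord and adad1. The longest full losses by gene were hoxb9, fli1, an ETS factor of blood and endothelium, and capg. They had 20.5, 16.3 and 15.99 kb in untreated embryos and no peak in the inhibited list labelled H3K4me1. The inhibited list labelled H3K27ac did have peaks there, with 10.9 kb near hoxb9, 10.1 kb near fli1 and 7.92 kb near capg. The longest gains by gene, mir200a at 22.1 kb and mir196b at 17.7 kb, mostly overlapped untreated peaks that the deposited annotation gives to a neighbouring gene.

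RNA did not separate the H3K4me1 classes. In the stage 9 3'-end sequencing libraries, with 6703399 tags in inhibited and 9390029 in untreated embryos, 4435 genes reached 10 CPM, scaled on the tags of named genes, in the higher library. Of these, 16.6% were at least 2-fold lower under inhibition and 20.7% at least 2-fold higher, on a log2 scale with a pseudocount of 1 CPM. Among genes without a peak under inhibition 16.4% were lower and 21.9% higher, among genes at least 2-fold shorter 15.0% and 21.5%, within 2-fold 16.7% and 20.4%, and among genes at least 2-fold longer 19.3% and 23.3%. These shares were close to those of all genes. Of the 41 named genes with enough tags, 6 were lower and 11 higher. Vegt had 254 tags in inhibited and 664 in untreated embryos, a log2 ratio of -0.86, which is within 2-fold. Ctnnb1, with the longer H3K4me1, had 3259 and 1499 tags, a log2 ratio of 1.63, and id3 527 and 66 tags, a log2 ratio of 3.39. These genes moved the way of their H3K4me1, and others moved against it. Epcam, with the shorter H3K4me1, had 1020 and 598 tags, a log2 ratio of 1.28. Rcbtb2, with the longer H3K4me1, had 159 and 592 tags, a log2 ratio of -1.35.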

How the data were processed

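The members and gene lists were chosen with earlier results of these data known. The deposited peak lists give positions, a score, a GC fraction, an annotation and the nearest gene on xenTro2, per the file headers. Peaks came from MACS2 and HOMER, on BWA alignments in untreated and Bowtie alignments in inhibited histone libraries, per the submitters' processing notes (versions: not given in the sources used here). Each peak's score, as deposited by the authors, has no stated scale and was used only within a list. RNA values are raw counts of 3'-end tags per called region deposited by the authors; regions were summed by gene label and scaled to the tags of named regions, and the 482 labels that name several genes were kept apart. Unnamed regions held 30.5% of tags in inhibited and 29.1% in untreated stage 9 embryos and were left out. A further 4 RNA columns that match no sample here were not used.

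Overlaps, covered lengths, shares with exact 95% intervals and gene sums within 50 kb were computed with Python 3.11.15, numpy 2.4.6, pandas 2.3.3 and scipy 1.17.1, and figures with matplotlib 3.10.9. The overlap calls, overlapping pairs and common length were tested on simulated data, and the intervals and gene sums were not. TMM factors, an alternative RNA scaling, came from edgeR 4.0.16 in R 4.3.3. A called RNA or length difference means at least 2-fold. Genes named are members of the Nodal, endoderm, mesoderm and organizer lists with a peak, and the 10 leading genes in each direction by unshared peak score, unshared peak width, number of unshared peaks, and length lost or gained in full. Other genes of the fixed lists were named after their values were seen. Alternatives covered the score, list length, overlap rule, promoter and gene distance, score quintiles and RNA scaling. The depth of the ChIP libraries is unknown. No genome of the build was used, so no sequence is shown.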

Additional observations from a re-analysis of the deposited data

How the results depend on the processing

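Peaks of inhibited embryos also called in untreated embryos, untreated peaks called again, untreated length also covered, the promoter, H3K27ac, stage 8 and Smad2/3 gaps and the GC difference came to 85.6%, 56.2%, 52.5%, 11.7, 35.5, 29.7, 23.4 and -0.77 points, in that order, for the higher-scoring 50% of each list. The untreated list reduced to the inhibited length gave 71.6%, 69.4%, 62.2%, 18.4, 27.6, 28.2, 19.4 and -1.06. Means over score quintiles were 7.29, 21.6, 11.3, 16.5 and -0.21 for the gaps and GC. Overlap of at least 50% of the shorter peak gave 79.9% and 52.5%. Overlap of at least 50% of each peak gave 53.1% and 35.1%, with gaps of 27.8, 39.0 and 16.01 for H3K27ac, stage 8 and Smad2/3, and a 1 kb allowance gave 82.8% and 54.3%. Chosen after seeing the data, the inhibited list labelled H3K27ac gave 83.3%, 49.998%, 50.6%, 6.89, 22.6, 20.4, 33.9 and -0.69, and 1878 genes without a peak under inhibition in place of 1198. It reversed the median log2 length ratio of the BMP (-0.038), pluripotency (-0.20), Wnt and FGF (-0.36), organizer (-0.33) and Nodal ligand lists (-0.54). Among alternatives added for the lists, a 20 kb limit reversed the Nodal ligand (-0.37), mesoderm (0.10) and Wnt and FGF (-0.024) medians, the reduced untreated list those of Smads and partners (0.14) and mesoderm (0.13), and start-site windows those of Nodal ligands (-0.17) and Smads and partners (0.10). The endoderm, antagonist and receptor medians stayed below 0 in all 4 of these, but so did the all-gene median, which lay between -0.33 and -0.15. The ectoderm, maternal, housekeeping and later-marker medians did too. With start-site windows the antagonist median was -0.14, less negative than the -0.32 of all genes. Scaffolds with peaks in both arms, also added later, gave 56.4% of untreated peaks called again, 55.7% of length and -2.35 for GC. Named genes with higher RNA numbered 19 with no minimum and 11 with it. The GC difference under the overlap rules, added later, was -2.10 for 50% of the shorter peak, -2.35 for 50% of each and -1.93 within 1 kb. The promoter, H3K27ac, stage 8 and Smad2/3 gaps and the GC difference kept their sign under each alternative run for them. The cause of the shifts was not tested.

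Other RNA scalings moved the median of all genes by -0.03 (all tags), -0.12 (TMM) and -0.20 (median of ratios) on the log2 scale. No paired analysis was possible because each arm has 1 library. With no ChIP depth, a peak that was not called cannot be told from one below the reach of its library.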

Other observations

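Histone genes, grouped by name after their values were seen, were at least 2-fold shorter in H3K4me1 or without a peak under inhibition at 10 of 18 and longer or new at 2. Their summed length was 82.6 kb in inhibited and 183.6 kb in untreated embryos. Hist1h2aj had 4 peaks in inhibited and 15 in untreated embryos and hist2h3c 5 and 14. These are multi-copy genes, so the placement of their reads is uncertain and may differ between aligners, which was not tested. Genes named znf encode zinc finger proteins and also sit in repeated clusters. They were at least 2-fold shorter or without a peak at 20 of 56 (35.7%), near the 34.4% of all genes, and longer at 2. Their median log2 ratio was -0.47, against -0.30 for all genes. Znf33a had 0 peaks in inhibited and 7 in untreated embryos. Genes outside these families also appear among those with most untreated-only peaks, such as the epithelial adhesion gene epcam, with 2 peaks in inhibited and 8 in untreated embryos. The copy number of these genes was not tested.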
